A study of Danio rerio with 8 samples.

Results

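Cytochrome P450 enzymes of family 2 were followed in whole zebrafish embryos (Danio rerio) that had been kept in an inhibitor of cysteine proteases. The family was taken as each row of the deposited count table whose name begins with cyp2 followed by a letter, which gave 41 genes of 36109. The rule uses names alone, although the family itself was picked with earlier results of these data known. E64d, a cell-permeable blocker of cysteine proteases such as the cathepsins, was given at 3 µM to wild-type (WT) AB embryos through a nicked chorion. Controls of the same strain, with the chorion nicked as well, received DMSO, and the stated solvent level was 0.5% in both groups. The dilution described for the E64d stock would by itself bring less DMSO than that, so a difference in solvent cannot be told apart from the inhibitor. Exposure began 1 hour after fertilization and lasted to the age of 24 hours, in medium with PTU, an inhibitor of pigment formation. Each of the 2 groups had 4 libraries, and each library was total RNA of 7 pooled embryos, so sex and individual embryos were mixed and errors describe the spread between pools.

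P450 enzymes of this family sit in the membrane of the endoplasmic reticulum, carry a haem group, and insert 1 oxygen atom into fatty acids, vitamins, drugs and other foreign compounds. They take electrons from P450 oxidoreductase, and in fish the family has grown by tandem duplication into subfamilies that mammals lack, such as cyp2aa, cyp2k, cyp2p, cyp2x and cyp2y. In mammals CYP2 enzymes are best known from the liver, where many are raised by drugs, while CYP2R1 and CYP2U1 are old members with substrates of the body itself. The differentiated liver appears in zebrafish only after the age studied here.

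E64d embryos carried less mRNA of 4 cyp2aa genes and more of their neighbour cyp2aa7, and no other member of the family passed the main test. The falls were of cyp2aa9 (3.03-fold), cyp2aa4 (2.33-fold), cyp2aa3 (1.93-fold) and cyp2aa8 (1.87-fold), and cyp2aa7 rose 3.47-fold. These 5 calls stood among 26 members tested, a share of 19.2%, where 6.13% of all 22163 tested genes were called. By direction 1 member rose, against 2.28% of all genes, and 4 fell, against 3.85%. The median log2 fold change was −0.05 over the 26 members and 0.01 over all tested genes, and 12 members lay above 0 and 14 below.

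Expression was called from the mean over the 8 libraries in CPM, the count of a gene scaled to 1 library size for all samples, at 0.5 CPM or more. By this measure 26 of the 41 members were expressed, and the same 26 passed the filter on low counts and were tested. The lowest expressed member was cyp2k18 (0.523 CPM) and the highest below the limit was cyp2k19 (0.244 CPM), so no member lay close under it. cyp2k18 itself lay just above the limit, with 1.28 CPM in DMSO replicate 2 and 0.184 to 0.365 CPM in the other controls. CPM is not corrected for transcript length, and no transcript lengths were used here, so the order of the members is an order of read counts and not of molecules. Of the 26, 10 had a mean of at least 10 CPM and 23 of at least 1 CPM.

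**Figure D1:**
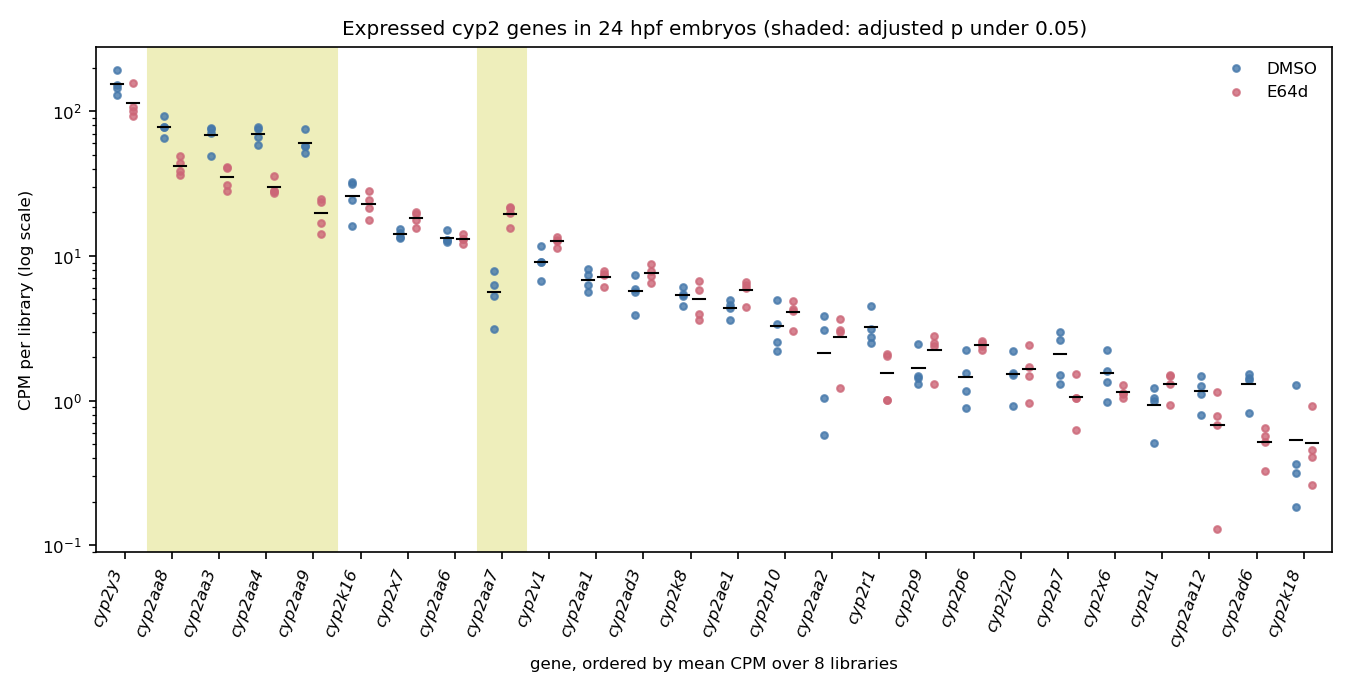
CPM of each of the 26 expressed cyp2 genes in the 4 DMSO and 4 E64d libraries, on a log axis. Points are libraries, black bars are group means, and shading marks the 5 genes with an adjusted p under 0.05. In the shaded genes the points of the groups do not overlap.

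The table as a whole held 29422983 to 37309883 counts per library. Of 22163 tested genes 1359 were called, 506 higher and 853 lower in E64d, a split that turned to 803 higher and 498 lower when libraries were scaled by their totals alone. That count was 655 to 854 without DMSO replicate 3 or any single E64d library. Markers of the embryo were present in all libraries: the epidermal keratin gene krt4 stood at 17437 ± 1684 CPM in DMSO (SD, n = 4), the muscle actin gene actc1b at 4799 ± 647 and the neuronal gene elavl3 at 312 ± 71.8. Of the liver genes, fabp10a stood at 0.849 ± 0.497 CPM in DMSO and 1.07 ± 0.303 in E64d, and cp, which encodes ceruloplasmin, at 45.8 ± 9.15 and 39.6 ± 8.65.

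The cyp2aa subfamily, known from fish, supplied 10 of the 41 rows, and 9 of these were expressed. In DMSO, cyp2aa9 was at 74.9, 57.8, 51.3 and 57.1 CPM in replicates 1 to 4. In E64d it was at 14.2, 16.9, 24.9 and 23.5 CPM. Every E64d library lay below every DMSO library, and the group means were 60.3 ± 10.2 and 19.9 ± 5.14 CPM. The log2 fold change was −1.60 ± 0.17 (SE, edgeR quasi-likelihood test, adjusted p = 9.93e-05), the steepest fall among the tested cyp2 genes.

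For cyp2aa4 the DMSO libraries held 77.5, 66.2, 58.6 and 75.4 CPM and the E64d libraries 28.1, 27.1, 35.9 and 28.0 CPM. The groups did not overlap, and in E64d replicate 3 stood above the other 3, which lay within about 1 CPM of each other. The log2 fold change was −1.22 ± 0.11 (edgeR, adjusted p = 2.88e-05).

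cyp2aa8 was the cyp2aa gene with the most counts. It was at 92.2, 64.9, 78.1 and 78.2 CPM in DMSO and at 36.1, 38.9, 49.0 and 43.7 CPM in E64d. The highest E64d value stayed under the lowest DMSO value, which was that of replicate 2. The log2 fold change was −0.90 ± 0.12 (edgeR, adjusted p = 0.000481).

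cyp2aa3 was at 70.8, 49.3, 77.1 and 74.9 CPM in DMSO and at 28.0, 31.2, 40.7 and 41.3 CPM in E64d. DMSO replicate 2 was again the lowest control and still above the highest E64d library. The log2 fold change was −0.95 ± 0.15 (edgeR, adjusted p = 0.00276).

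cyp2aa7 moved the other way, on fewer counts: 107 to 257 in the DMSO libraries and 600 to 739 in the E64d libraries, where cyp2aa4 had 1910 to 2478 and 855 to 1383. It was at 6.32, 3.12, 7.88 and 5.29 CPM in DMSO and at 19.8, 21.6, 15.6 and 21.5 CPM in E64d. The lowest E64d library held about double the CPM of the highest DMSO library, and the log2 fold change was 1.80 ± 0.23 (edgeR, adjusted p = 0.000373). Within single libraries, where scaling plays no part, cyp2aa7 counts were 24.0% to 63.1% of the counts of cyp2aa6, which was not called, in DMSO and 119% to 165% in E64d. Against cyp2aa4, which itself fell, they were 4.71% to 13.5% in DMSO and 43.4% to 79.7% in E64d. Its share of all cyp2aa counts, a total that was lower in E64d, went from 1.84% ± 0.610 to 11.7% ± 2.52 (SD, n = 4). E64d replicate 3 had the lowest cyp2aa7 of its group and the highest cyp2aa4, cyp2aa8 and cyp2aa9.

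The other expressed cyp2aa genes did not pass. cyp2aa6 was at 13.4 ± 1.21 CPM in DMSO and 13.1 ± 0.803 in E64d, and cyp2aa1 at 6.84 ± 1.07 and 7.20 ± 0.755. Their log2 fold changes were −0.03 ± 0.11 and 0.07 ± 0.16 (edgeR, adjusted p = 0.922 and 0.857), errors as small as those of the genes that fell. cyp2aa2 was uneven within both groups, from 0.583 to 3.87 CPM in DMSO and from 1.23 to 3.69 in E64d. The values of cyp2aa12 were 1.16 ± 0.291 and 0.683 ± 0.419 CPM, with 4 counts in E64d replicate 1, and cyp2aa11 had 3 counts in all.

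RefSeq's table for the assembly GRCz12tu, used for names and neighbours only, places the 10 cyp2aa genes in the order cyp2aa12, cyp2aa6, cyp2aa7, cyp2aa11, cyp2aa4, cyp2aa8, cyp2aa9, cyp2aa1, cyp2aa2, cyp2aa3. Among the genes that fell, cyp2aa4, cyp2aa8 and cyp2aa9 follow one another, with only zgc:101048, which was not analysed here, between cyp2aa4 and cyp2aa8. The other, cyp2aa3, comes after cyp2aa1 and cyp2aa2, which were not called. cyp2aa7 and the nearest gene that fell are separated by cyp2aa11, which was barely counted. The span of tut4, a gene for an RNA uridylyltransferase, overlaps those of the first 5 of these genes in that assembly. tut4 itself was at 5.20 ± 0.789 CPM in DMSO and 5.26 ± 0.869 in E64d (log2 fold change 0.02 ± 0.19, edgeR, adjusted p = 0.977). Only gene spans were compared, and not in the build used for the counts, so overlap of exons was not looked at. No strand setting is given in the sources used here. Whether reads of tut4 were counted for the cyp2aa genes that its span overlaps, or the reverse, was not tested. Reads that fit several of the duplicated cyp2aa genes could have been split or dropped.

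**Figure D2:**
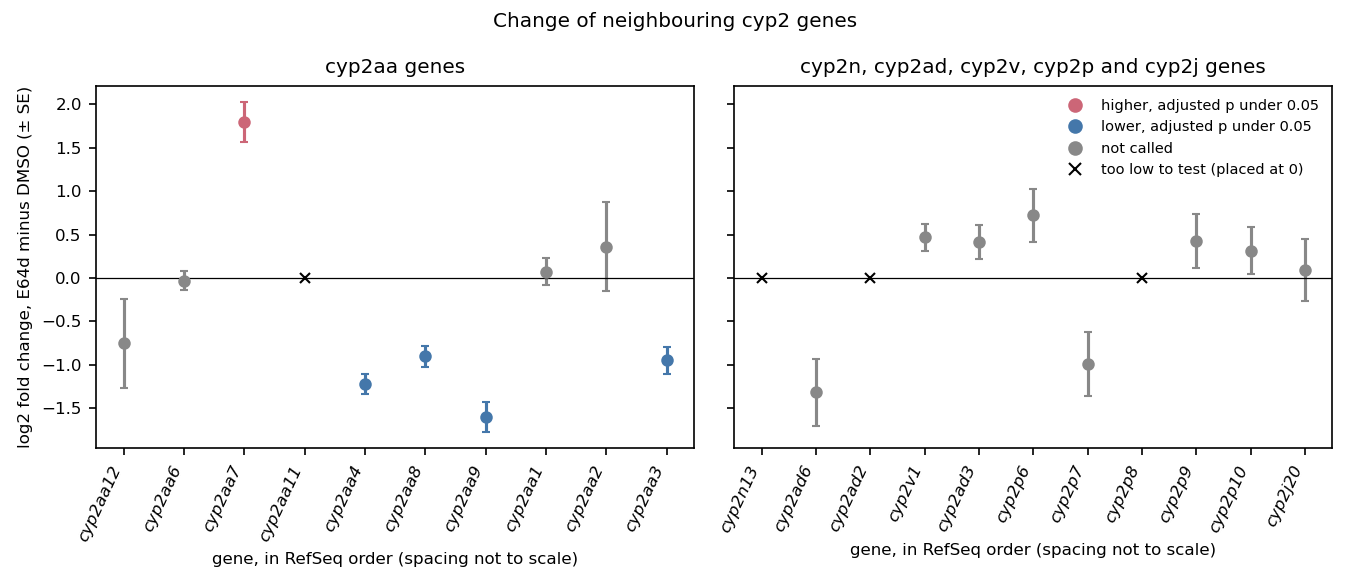
Log2 fold change (E64d minus DMSO, ± SE) of neighbouring cyp2 genes in RefSeq order, with the cyp2aa genes on the left and the cyp2n, cyp2ad, cyp2v, cyp2p and cyp2j genes on the right. Crosses at 0 are genes too low to test. On the left cyp2aa7 stands at 1.80 and 4 genes lie between −1.60 and −0.90, while no gene on the right was called.

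The 5 calls held in all 17 settings of the tests, among them each omission of 1 library and the fit with replicate numbers as a block. Levels in whole embryos join the number of cells with the RNA per cell, and fewer cells of a type cannot be told apart from less RNA in each. A list of 8 genes of the yolk syncytial layer and of plasma proteins held apobb.1, apoa1a, apoa1b, apoa2, tfa, rbp4, mttp and serpina1l. Of these 6 fell and none rose, where 3.85% of all tested genes fell. The list was written with earlier results of these data known, so this comparison is a description only. The summed level of the 8 was 16716 to 18801 CPM in DMSO and 12306 to 15058 in E64d. The largest part came from apobb.1, which did not pass, and none of the 8 was at 0. Nor did apoa1a pass, at 2853 ± 142 CPM in DMSO and 2705 ± 113 in E64d (edgeR, adjusted p = 0.564). The 6 that fell were apoa1b, apoa2, tfa, rbp4, serpina1l and mttp, the last from 70.6 ± 5.65 to 9.72 ± 1.5 CPM. In the list for intestine fabp2 fell as well (279 ± 13.2 to 193 ± 16.5 CPM), while vil1 and cldn15la of the same list, at about 1 CPM, did not pass. Which tissue held the fabp2 mRNA at this age was not looked at. Of 4 pronephros genes cdh17 fell from 110 ± 4.67 to 86.2 ± 10.1 CPM. The other 3 did not pass, with slc20a1a at 7.96 ± 2.49 and 6.28 ± 0.988 CPM, and with pax2a (25.0 ± 3.29 and 32.7 ± 3.10) and hnf1ba (15.6 ± 1.89 and 19.2 ± 1.21) higher in E64d without overlap. Of 4 epidermal genes the keratin gene cyt1 fell from 3412 ± 290.1 to 2599 ± 135 CPM, and krt4, krt5 and tp63 did not pass. No tested gene was called in the lists for differentiated liver, endothelium, blood, muscle, neural tissue and notochord. The part of any of the tissues named here in the cyp2aa changes was not tested.

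cyp2y3 had the most counts of the family, 24.3% to 31.3% of all cyp2 counts in the DMSO libraries and 24.8% to 40.0% in the E64d libraries. Its values were 193, 152, 145 and 129 CPM in DMSO and 156, 107, 93.5 and 101 CPM in E64d. The groups overlapped, because E64d replicate 1 stood above 3 of the controls, yet the E64d library was the lower one within each of the 4 replicate numbers. That was also so for cyp2r1, cyp2p7, cyp2aa12 and cyp2ad6, which were not called in the main test. The uncalled genes cyp2x7, cyp2v1, cyp2ad3 and cyp2ae1 were higher in E64d within each number. The share of such genes among all tested genes was not counted. For cyp2y3 the log2 fold change was −0.43 ± 0.16 and did not pass (edgeR, adjusted p = 0.132). The adjusted p was 0.00122 with the replicate number as a block, 0.0430 with DESeq2 and 0.0152 when E64d replicate 1 was left out.

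The replicate block called 3 further members, cyp2r1, cyp2x7 and cyp2v1, so that 9 of the 26 were called, against 11.6% of all genes in that fit. cyp2r1 encodes the counterpart of the enzyme that in humans adds the first hydroxyl group to vitamin D. It was at 2.50, 3.12, 2.76 and 4.47 CPM in DMSO and at 1.00, 2.05, 1.01 and 2.10 CPM in E64d. The groups did not overlap, with a log2 fold change of −1.06 ± 0.32 (edgeR, adjusted p = 0.0744, 0.0132 with the block, and 0.0177 with DESeq2). cyp2u1, whose human counterpart hydroxylates long-chain fatty acids, was at 0.506, 0.990, 1.04 and 1.22 CPM in DMSO and at 1.49, 0.936, 1.51 and 1.31 CPM in E64d. Its groups overlapped and the log2 fold change was 0.48 ± 0.36 (edgeR, adjusted p = 0.526).

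cyp2x7 was at 14.1 ± 0.956 CPM in DMSO and 18.3 ± 2.11 in E64d, with all E64d values above the controls by a narrow margin (15.5 against 15.4 CPM). Its log2 fold change of 0.37 ± 0.11 did not pass (edgeR, adjusted p = 0.0750, 0.0428 with the block, 0.0368 under library totals alone, and 0.0391 with DESeq2). The other expressed gene of its subfamily, cyp2x6, was at 1.54 ± 0.533 and 1.14 ± 0.101 CPM. cyp2x8 had no count in any library, and cyp2x9, cyp2x10.2 and cyp2x12 had 42, 62 and 4 counts over all 8.

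The genes cyp2n13, cyp2ad6, cyp2ad2, cyp2v1, cyp2ad3, cyp2p6, cyp2p7, cyp2p8, cyp2p9, cyp2p10 and cyp2j20 form a second row of neighbours in the same RefSeq table, which gives cyp2j names as synonyms of the cyp2n, cyp2ad and cyp2p genes. Mammalian CYP2J enzymes make epoxides from arachidonic acid. Of these 11 genes 8 were expressed and none was called, with 6 log2 fold changes above 0 and 2 below. cyp2v1 was at 9.10 ± 2.00 CPM in DMSO and 12.6 ± 0.873 in E64d (log2 fold change 0.47 ± 0.16, edgeR, adjusted p = 0.10). Its adjusted p was 0.0448 with the block, 0.0441 with DESeq2 and 0.0379 when DMSO replicate 4 was left out. The span of cyp2v1 overlaps those of cyp2ad2, cyp2ad3 and cyp2p6 in GRCz12tu.

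Within this second row the 2 values below 0 were those of cyp2ad6 and cyp2p7. cyp2ad6 had 1.29 ± 0.322 CPM in DMSO and 0.515 ± 0.135 in E64d without overlap (log2 fold change −1.32 ± 0.39, edgeR, adjusted p = 0.0671, and 0.0497 without DMSO replicate 2). cyp2p7 had 2.10 ± 0.819 and 1.06 ± 0.367 CPM, with overlap (adjusted p = 0.146). Its neighbours cyp2p6, cyp2p9 and cyp2p10 had higher means in E64d: 2.42 ± 0.148 against 1.46 ± 0.592 CPM, 2.25 ± 0.658 against 1.68 ± 0.532, and 4.08 ± 0.791 against 3.28 ± 1.25. None of these differences passed (edgeR, adjusted p = 0.202, 0.515 and 0.581). cyp2ad3 was at 5.70 ± 1.41 and 7.61 ± 0.957 CPM and cyp2j20 at 1.54 ± 0.521 and 1.64 ± 0.6 CPM, both with overlap.

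The cyp2k subfamily, whose trout member CYP2K1 is known to activate aflatoxin, had 10 rows and 3 expressed genes, none of them called. cyp2k16 was at 26.0 ± 7.59 CPM in DMSO and 23.0 ± 4.37 in E64d, cyp2k8 at 5.33 ± 0.664 and 5.04 ± 1.49, and cyp2k18 at 0.537 ± 0.502 and 0.510 ± 0.284. The spread within a group was larger than the difference of the means in each of these genes. The remaining 7 had 66 counts or fewer over 8 libraries (cyp2k19 66, cyp2k21 24, cyp2k20 16, cyp2k17 14, cyp2k6 8, cyp2k22 8 and cyp2k31 0). cyp2ae1, the expressed single member of its subfamily, was at 4.37 ± 0.574 and 5.83 ± 0.977 CPM (edgeR, adjusted p = 0.228).

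Over the family, 15 of 41 members fell under the limit of expression. Besides the cyp2k, cyp2x and cyp2aa genes named, these were cyp2p8 with 64 counts, cyp2ad2 with 54 and cyp2n13 with 9, all of them too low to test. Of the 9 cyp2n13 counts 8 were in E64d replicate 4, and none was in a DMSO library. Among the 26 tested members the groups did not overlap in 8, where this held for 14.4% of all tested genes. Those 8 were the 5 called genes with cyp2r1, cyp2x7 and cyp2ad6. An unadjusted p under 0.05 was found for 13 of the 26, the 5 called genes and 8 others, where 20% of all tested genes had one.

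Summed over all 41 genes, the family stood at 630, 484, 529 and 532 CPM in the DMSO libraries and at 391, 353, 377 and 378 CPM in the E64d libraries. The ratio of the means was 0.689, and no E64d sum reached a DMSO sum. The 4 genes that fell held 276 ± 32.5 CPM of it in DMSO and 127 ± 20.3 in E64d. The 30 genes outside cyp2aa and cyp2y3 held 83.7 ± 8.85 and 90.1 ± 3.80 CPM. These sums are a description, since a few abundant genes set them.

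**Figure D3:**
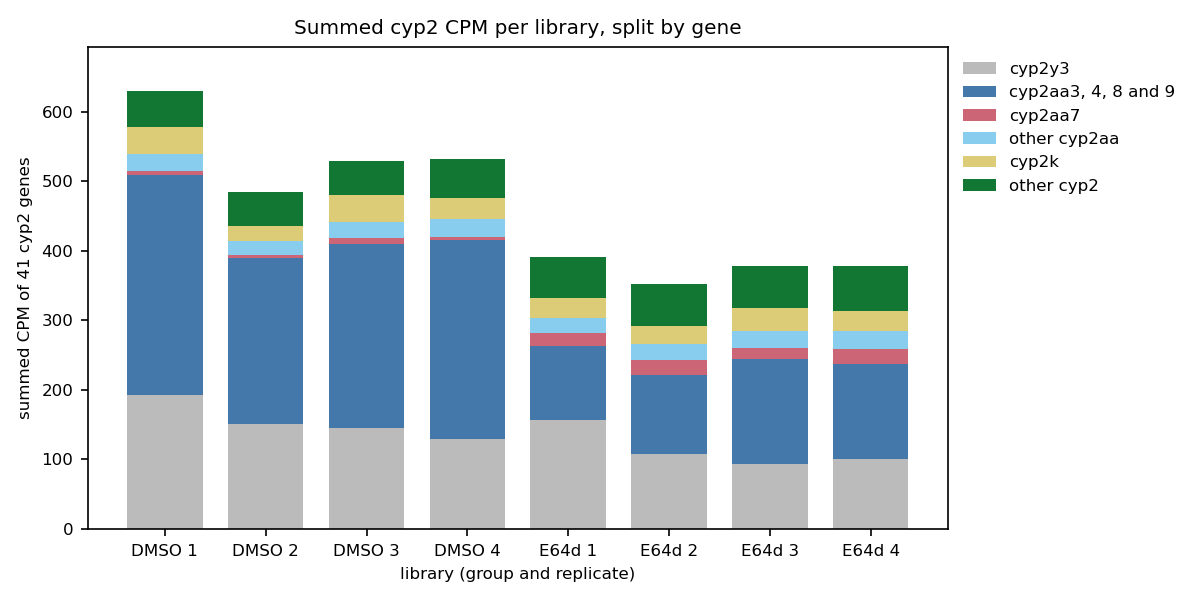
Summed CPM of the 41 cyp2 genes in each library, stacked by gene or group of genes. The blue segments (cyp2aa3, cyp2aa4, cyp2aa8 and cyp2aa9) average 276 CPM in DMSO and 127 CPM in E64d, and the red segments (cyp2aa7) are taller in all E64d libraries.

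Genes that supply, control or follow these enzymes, and other P450 genes of families 1 and 3, were taken from 6 lists. These held 60 names, of which 56 were in the table and 51 were tested. Of the 51 tested genes 3 rose and 3 fell, or 6 of 51 where 6.13% of all genes were called, with a median log2 fold change of 0.06. The list of P450 families 1 and 3 gave 2 of the rises and 1 of the falls. None of the 10 genes in the list of electron donors and related proteins was called. The oxidoreductase gene pora was at 29.5 ± 3.61 CPM in DMSO and 28.9 ± 1.77 in E64d. The other oxidoreductase gene, porb, was higher in E64d without overlap and did not pass (edgeR, adjusted p = 0.0583). Its libraries held 21.3 to 24.1 CPM in DMSO and 26.0 to 28.8 CPM in E64d. The smallest p of the list was that of cyb5r3, a cytochrome b5 reductase gene, at 38.7 ± 4.34 and 30.3 ± 2.32 CPM (edgeR, adjusted p = 0.0552, and 0.0199 with the block). None of the 12 tested regulators was called either. The pregnane X receptor gene nr1i2 had a higher mean in E64d (9.76 ± 1.55 and 12.2 ± 0.820 CPM, edgeR, adjusted p = 0.203), as did the aryl hydrocarbon receptor gene ahr2. Means were lower in E64d for ahr1b, rxraa, rxrba and rxrbb, and higher for the other tested regulators. ahr2 was at 40.3 ± 5.31 and 51.2 ± 2.21 CPM (edgeR, adjusted p = 0.0536). It passed in 8 of the 17 settings, among them the block (adjusted p = 0.0151).

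In the list of haem synthesis and breakdown 1 of 12 genes fell, the haem oxygenase gene hmox1a, from 56.4 ± 5.28 to 42.2 ± 2.32 CPM (log2 fold change −0.42 ± 0.09, edgeR, adjusted p = 0.0117, and 0.0504 under library totals alone). The gene of the first step of synthesis, alas1, was at 95.0 ± 13.1 and 99.7 ± 2.64 CPM. Among 9 genes of P450 families 1 and 3, whose enzymes also act on foreign compounds, 2 rose and 1 fell. Over all tested genes 2.28% rose and 3.85% fell, which are the shares to set beside this list and the haem list. cyp1c1 was at 13.5, 9.73, 6.63 and 6.51 CPM in DMSO and at 1.55, 1.4, 2.08 and 1.51 CPM in E64d (log2 fold change −2.47 ± 0.26, edgeR, adjusted p = 8.61e-05). cyp3c3 was at 1.83, 1.37, 1.23 and 1.19 CPM in DMSO and at 12.7, 7.08, 16.9 and 9.97 CPM in E64d. Its groups lay far apart, with a log2 fold change of 3.06 ± 0.27 (edgeR, adjusted p = 1.87e-05). cyp3c1 rose from 15.8 ± 1.18 to 24.5 ± 2.73 CPM. cyp1a ranged widely in DMSO (61.8 ± 45.6 CPM against 24.9 ± 9.48) and did not pass. Nor did cyp1b1, at 2.30 ± 1.03 and 2.00 ± 0.536 CPM, or cyp1c2, which had the higher mean in E64d (0.583 ± 0.374 and 1.31 ± 0.643 CPM). cyp3c4 was higher in E64d without overlap (0.858 ± 0.439 and 2.21 ± 0.474 CPM) and did not pass (edgeR, adjusted p = 0.0543). The remaining genes of the list, cyp1d1 (6.80 ± 1.99 and 5.60 ± 1.84 CPM) and cyp3a65 (0.324 ± 0.296 and 0.405 ± 0.254 CPM), did not pass either.

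Of 3 tested epoxide hydrolase genes 1 rose, where 2.28% of all tested genes rose. It was ephx2, whose enzyme opens the fatty acid epoxides that CYP2 enzymes of mammals make. ephx2 went from 16.8 ± 2.09 to 23.3 ± 2.90 CPM (log2 fold change 0.47 ± 0.12, edgeR, adjusted p = 0.0404). That call was lost in 6 of the 8 omissions of a library, those of DMSO replicate 1, 3 or 4 and of E64d replicate 2, 3 or 4, with an adjusted p of up to 0.136. Around cyp2r1, the gene of the enzyme that completes active vitamin D, cyp27b1, fell from 4.73 ± 1.05 to 1.59 ± 0.650 CPM (log2 fold change −1.57 ± 0.30, edgeR, adjusted p = 0.00854). The other 4 tested genes of that list did not pass, and over all tested genes 3.85% fell. cyp24a1, which breaks the vitamin down, was at 4.52 ± 0.630 and 6.77 ± 1.96 CPM, and cyp27a1.4 at 2.81 ± 1.16 and 3.17 ± 1.19 CPM. The receptor gene vdra was at 3.76 ± 1.11 and 3.77 ± 0.236 CPM. The second receptor gene, vdrb, had more counts and stood at 43.8 ± 7.32 and 54.6 ± 3.37 CPM (edgeR, adjusted p = 0.128).

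**Figure D4:**
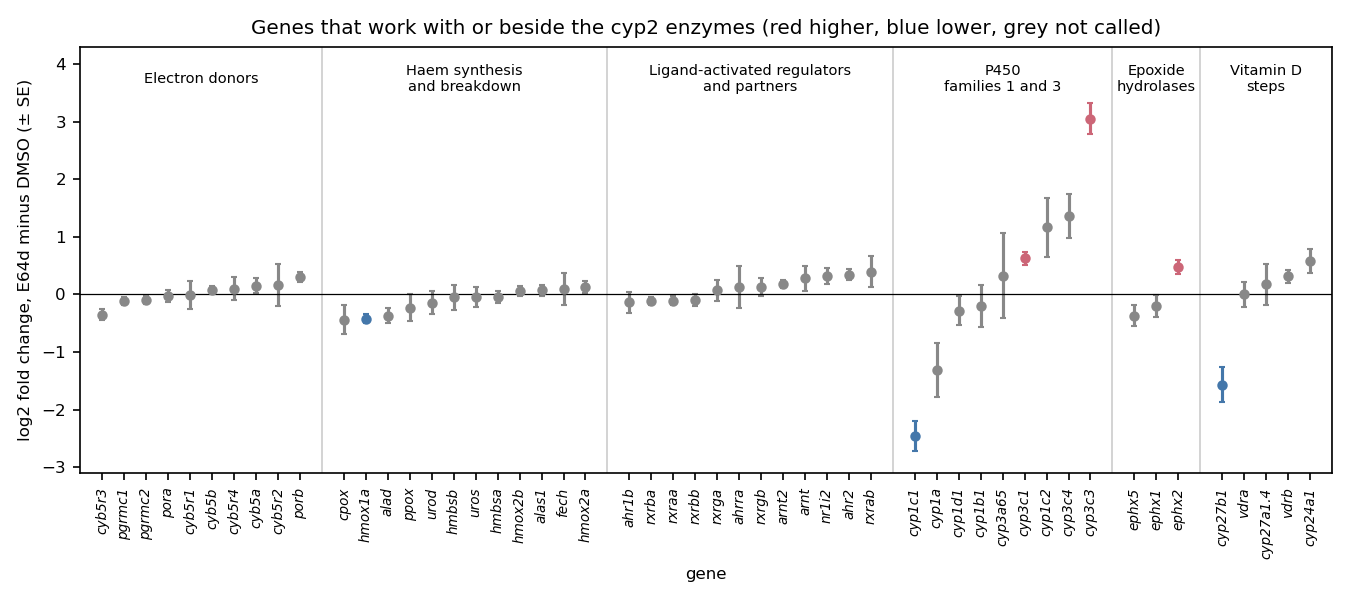
Log2 fold change (E64d minus DMSO, ± SE) of the 51 tested genes of the 6 lists, sorted within each list. The called genes are cyp3c3 (3.06), cyp3c1 (0.63) and ephx2 (0.47) above 0 and hmox1a (−0.42), cyp27b1 (−1.57) and cyp1c1 (−2.47) below, and the electron donors and regulators hold none.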

How the data were processed

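Raw counts per gene were deposited by the authors, with 1 column for each library and no normalization. The submitters' processing notes name FastQC 0.12.1, Trim Galore 0.6.10, STAR 2.7.10b, featureCounts 2.0.6 and the build GRCz11. Which annotation and strand setting were used, and how multi-mapping reads were treated, is not given in the sources used here. Columns were matched by the names in the sample labels, and 6 columns without a sample name were left out. Of counts from 1 to 20, 75.9% to 80.7% were even in each library; why was not tested, and halved counts were tried as an alternative.

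All genes were fitted together in edgeR 4.0.16 (R 4.3.3) with filterByExpr, TMM scaling, the quasi-likelihood test and Benjamini-Hochberg adjustment at 0.05. CPM used the TMM-scaled totals. SE is the log2 fold change over the square root of F. Replicate spread gave a common coefficient of variation of 20%. Alternatives were RLE or total scaling, other filters, DESeq2 1.42.0, limma-voom (limma 3.58.1), a replicate block and the omission of each library.

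Replicate numbers were checked for pairing on deviations from group means. Pairs of libraries with 1 number had correlations of 0.113 to 0.379, all above the limit of 0.1, and other pairs −0.21 to 0.055. The pairing thus comes from the data, and the main test leaves it out.

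The members and lists were chosen with earlier results of these data known. By rule, library values are given for called members, the 5 with the highest CPM, cyp2r1 and cyp2u1, and from each partner list the called genes are named, or that with the smallest p. Other genes named (pora, porb, nr1i2, ahr1b, rxraa, rxrba, rxrbb, alas1, cyp1a, cyp1b1, cyp1c2, cyp1d1, cyp3a65, cyp3c4, cyp24a1, cyp27a1.4, vdra, vdrb, tut4) were chosen after their values were seen. The names hmox1b, cyp3c2, cyp27a1.1 and cyp27a1.3 matched no row and were not analysed here.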

Additional observations from a re-analysis of the deposited data

Results flagged for a closer look

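In 4 of 70 groups of 4 libraries, 1 library stood far from the other 3, by the gap to its nearest neighbour over the range of the group. Chance gives about 1 in 20 such groups. E64d replicate 3 held 35.9 CPM of cyp2aa4, against 27.1 to 28.1 CPM in the other E64d libraries. DMSO replicate 1 held 2.47 CPM of cyp2p9, against 1.31 to 1.49 CPM. DMSO replicate 2 held 1.28 CPM of cyp2k18, against 0.184 to 0.365 CPM. The same library held 17.6 CPM of cyp3c1, against 15.0 to 15.4 CPM.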

How the results depend on the processing

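The calls of cyp2aa3, cyp2aa4, cyp2aa7, cyp2aa8 and cyp2aa9 held in each of the 16 alternatives, with adjusted p up to 0.0124. Over all alternatives no cyp2 or partner gene that was called changed sign. Members called higher numbered 1 in the main test, 2 under library totals alone, 3 with DESeq2, 3 with the replicate block, and 1 to 2 over the omissions of single libraries. Members called lower numbered 4 in the main test, 6 with DESeq2, 6 with the replicate block, and 4 to 5 over those omissions. Partner genes called numbered 6 in the main test, 10 with DESeq2 and 13 with the replicate block. All genes called numbered 1359 in the main test (6.13% of those tested), 2156 with DESeq2, 2580 with the replicate block (11.6%), and 655 to 1396 over the omissions. With DESeq2 and with the block, the counts of members and partner genes thus rose along with the count of all genes. The ratio of summed cyp2 levels was 0.730 under library totals alone and 0.667 to 0.731 over the omissions. The number of expressed members was 25 to 26 over the omissions. The causes were not tested. Members near the limit of expression rest on few counts (SE of 0.64 on the log2 scale for cyp2k18), so small differences in them were not detectable at this depth.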

Other observations

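The nearest genes in the count table that flank the 2 rows of cyp2 neighbours were also looked up, a choice made after the cyp2 values were seen. Nearest to the cyp2aa genes were tut4, whose span overlaps part of that row, on one side and cyp2ae1 on the other. Both are given above and were not called. Beyond these, gpx7 was at 13.3 ± 2.06 CPM in DMSO and 11.5 ± 1.21 in E64d (SD, n = 4). si:ch73-217n20.1 was at 2.41 ± 0.824 and 3.07 ± 0.775 CPM, and edgeR called neither gpx7 nor this gene (adjusted p = 0.438 and 0.569). In the row from cyp2n13 to cyp2j20 no gene was called. After cyp2j20, the next genes that are held in the count table are paics and ppat, both of purine synthesis. Both fell: paics from 518 ± 95.2 to 200 ± 11.1 CPM and ppat from 61.4 ± 5.10 to 44.7 ± 4.83 CPM (edgeR, adjusted p = 7.67e-06 and 0.0116). Over all tested genes 3.85% fell, and any part of gene position was not tested. On the other side, hook1 was at 8.56 to 9.76 CPM in DMSO and 8.09 to 10.6 CPM in E64d and was not called (edgeR, adjusted p = 0.917). The gene beyond it, si:dkey-183n20.15, was at 2.15 ± 0.501 and 1.42 ± 0.651 CPM and was not called (edgeR, adjusted p = 0.408).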
